A study of Mus musculus with 16 samples.

Results

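Transcripts of 4 receptors that act on cyclic AMP were followed in the primary motor cortex of mice after stroke: the dopamine receptor genes Drd2 and Drd5, the adenosine receptor gene Adora2a and the orphan receptor gene Gpr6. They were taken by name from the 417 genes that the authors deposited for the cortex opposite the lesion (contralesional), as receptors of striatal and cortical neurons that couple to the G proteins Gs or Gi. All 4 were found there, and 0 of them is among the 263 genes deposited for the side of the lesion (ipsilesional). The mice were C57Bl6 animals that had undergone stroke and were then tested on a horizontal rotating beam. In the contralesional libraries, 3 came from animals labelled as recovered (animals 6, 23 and 28) and 5 from animals labelled as non-recovered (17, 19, 20, 21 and 29). Every animal had a stroke, so no value here describes an uninjured brain. The sources used here do not give the stroke method, the time after stroke or the age and sex of the animals. The comparison asked how the transcripts differed between animals that had and had not regained performance on the beam.

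Dopamine receptors fall into a D1 class, which couples to Gs-type proteins and raises cyclic AMP, and a D2 class, which couples to Gi-type proteins and lowers it. Drd5 encodes the D5 receptor of the D1 class, found in cortical and hippocampal neurons among others. Drd2 encodes the D2 receptor, which in the striatum marks projection neurons of the indirect pathway. Those same neurons carry the adenosine receptor encoded by Adora2a, which couples to Gs-type proteins and opposes D2 signalling in the cell. GPR6 is an orphan receptor with high activity in the absence of a known ligand, couples to Gs-type proteins and is also abundant in indirect pathway neurons.

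The stretches upstream of the start sites are shown because cyclic AMP acts on transcription through the cyclic AMP response element (CRE, TGACGTCA), and the 4 receptors were chosen for their effect on cyclic AMP. They come from the RefSeq promoter table on GRCm38.p6, which held 3 of the 4 genes; Adora2a had no entry. The table's window runs from 250 bases before a start to 50 bases after it. Only bases before the first base of the gene in RefSeq and in GENCODE M21 are printed, 5′ to 3′ on the gene's strand. For Drd2 the RefSeq gene begins at 49340360, ahead of the start at 49340403 that the window is built on. For Drd5 the GENCODE gene begins at 38319367, ahead of the RefSeq start at 38319509 that its window is built on. Capitals mark a CRE in Gpr6 and the GC box (GGGCGG, or CCGCCC where it reads on the other strand) in Drd2 and Drd5. The stretches are chr10:41072291-41072540 (minus strand) for Gpr6, chr9:49340153-49340359 (plus strand) for Drd2 and chr5:38319259-38319366 (plus strand) for Drd5.
Gpr6: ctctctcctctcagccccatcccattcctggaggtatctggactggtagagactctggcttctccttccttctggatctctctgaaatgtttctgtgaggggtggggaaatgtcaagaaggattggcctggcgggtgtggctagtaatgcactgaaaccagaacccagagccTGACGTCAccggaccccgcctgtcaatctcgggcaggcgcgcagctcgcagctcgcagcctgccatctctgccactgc
Drd2: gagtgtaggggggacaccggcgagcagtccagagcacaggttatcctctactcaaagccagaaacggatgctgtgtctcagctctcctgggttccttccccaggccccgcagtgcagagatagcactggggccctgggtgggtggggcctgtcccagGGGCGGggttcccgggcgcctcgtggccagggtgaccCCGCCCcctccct
Drd5: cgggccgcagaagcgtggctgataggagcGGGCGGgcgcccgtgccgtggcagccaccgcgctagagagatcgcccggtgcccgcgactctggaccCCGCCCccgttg

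The CRE of Gpr6 begins 78 bases before the start its window is built on and was a full match. Of 32851 promoter windows in the table, 588 (1.79%) held this CRE on either strand. Gpr6 had 0 GC boxes, while Drd2 had 2, starting 93 and 56 bases before the start its window is built on. Drd5 had 2, starting 221 and 154 bases before the RefSeq start of its window, and so nearer to its GENCODE start. GC boxes were found in 35.7% of all windows. The shorter CRE core TGACG, which each full CRE holds on both strands, was found in 20.8% of windows and in neither Drd2 nor Drd5. The TATA box TATAAA was found in 13.6% of windows and in none of the 3 genes. These are letter matches in a reference sequence and were not measured as binding.

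The contralesional libraries were scaled by totals of 17972791 to 27895465 reads, and the receptors were rare within them. Reads per library ranged from 9 to 60 for Drd2, 42 to 67 for Drd5, 35 to 128 for Adora2a and 13 to 39 for Gpr6. By mean CPM (reads per 1000000 reads of library total) over the 8 libraries, Adora2a ranked 338, Drd5 367, Drd2 407 and Gpr6 413 among the 417 listed genes. None of the 12 fixed markers of cortical excitatory neurons is among the contralesional genes, so the tissue label was not checked with them. For animals 6 and 23 the sample titles and description codes are swapped between the hemispheres. Titles were used, and since both animals are recovered the groups are the same either way. The first 2 fields of the codes are shared by non-recovered animals 19, 20 and 21, and by recovered animal 28 and non-recovered animal 29; the labels do not say what these fields mean.

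In contralesional cortex, Gpr6 was lower in recovered than in non-recovered mice, and it was the 1 receptor of 4 that passed the test across all listed genes. That call was lost in 12 of 17 alternative fits. The number of all listed genes that passed also moved, from 33 to between 0 and 152 under the alternatives. Drd2 and Adora2a had lower means in recovered mice and Drd5 a higher one, but none of these 3 passed. A difference is given as a log2 fold change, the recovered mean minus the non-recovered mean on the deposited log2 CPM scale, with its standard error (SE) from limma, and passing means an adjusted p under 0.05 over all 417 genes. By that rule 7.91% of the listed genes passed, 6.00% as lower and 1.92% as higher. The unadjusted limma p was under 0.05 for 4 of 4 receptors and also for 73.4% of the listed genes. No listed gene had an unadjusted limma p above 0.156, so a call here ranks genes that already differ to some degree. In a bulk tissue, fewer cells of a type and less RNA per cell cannot be told apart.

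**Figure D1:**
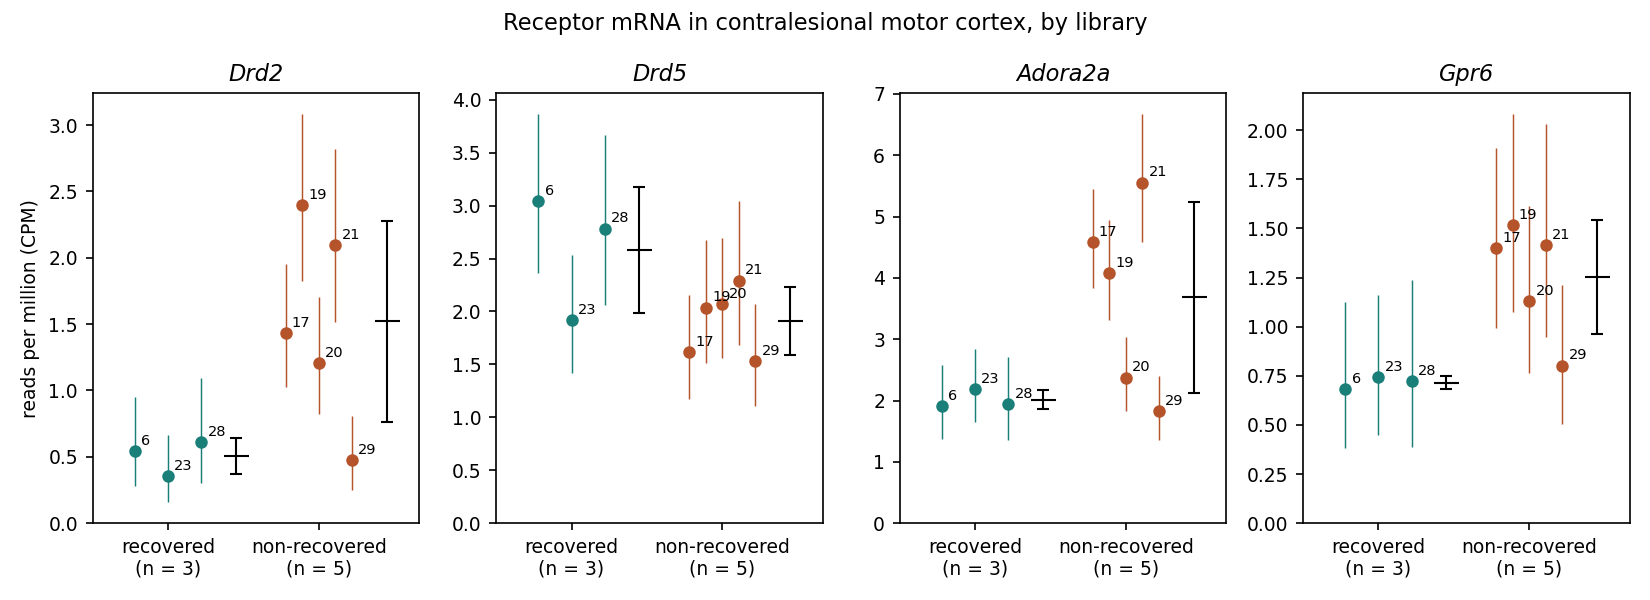
Each panel plots 1 receptor gene, with CPM (linear axis from 0) against group in contralesional cortex. Coloured points are libraries labelled by animal with exact 95% Poisson intervals of their reads, and black bars are the group mean ± SD; the 3 recovered libraries of Gpr6 lie at 0.682 to 0.742 CPM, below all 5 non-recovered ones.

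Drd2 (ENSMUSG00000032259.8; GRCm38 chromosome 9, 49340627 to 49408177, plus strand, 8 exons) is the Gi-coupled member. In recovered animals 6, 23 and 28 it stood at 0.545, 0.352 and 0.612 CPM, from 12, 9 and 11 reads. In non-recovered animals 17, 19, 20, 21 and 29 it stood at 1.43, 2.40, 1.21, 2.10 and 0.474 CPM, from 40, 60, 32, 43 and 13 reads. The recovered libraries were all low, 4 of the 5 non-recovered ones lay above every recovered one, and the groups overlapped through animal 29. On the deposited log2 scale the means were -0.80 ± 0.36 (SD, n = 3) and 0.51 ± 0.85 (SD, n = 5). The log2 fold change was -1.31 ± 0.43 (SE; 95% interval -2.28 to -0.34), with a limma adjusted p of 0.0564 and an exact 2-sided permutation p of 0.107. The mean CPM of non-recovered animals was 3.02 times that of recovered ones; the log2 values carry a prior count, which pulls so rare a gene toward no change.

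The spread between animals is given beside that of read counting. Among recovered animals the coefficient of variation of CPM was 26.9%, against 30.9% from read counting alone at these depths. Among non-recovered animals it was 49.8%, against 16.4% from counting, and 31.2% without animal 29. Pooled over a group's libraries, Drd2 had 32 reads in recovered animals, or 0.488 CPM (exact Poisson 95% interval 0.334 to 0.689). It had 188 reads in non-recovered animals, or 1.48 CPM (1.27 to 1.70). These intervals cover counting error only and treat reads as separate molecules. Without non-recovered animal 29 the log2 fold change of Drd2 was -1.65 and its limma adjusted p 0.0176.

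Drd5 (ENSMUSG00000039358.3; chromosome 5, 38319367 to 38322518, plus strand, 1 exon) is the Gs-coupled dopamine receptor of the set. It stood at 3.04, 1.91 and 2.78 CPM in recovered animals 6, 23 and 28, from 67, 49 and 50 reads. It stood at 1.61, 2.04, 2.07, 2.29 and 1.53 CPM in non-recovered animals 17, 19, 20, 21 and 29, from 45, 51, 55, 47 and 42 reads. Recovered animals 6 and 28 lay above every non-recovered animal, while animal 23 lay among them. The log2 fold change was 0.41 ± 0.17 (SE; 95% interval 0.018 to 0.80), with a limma adjusted p of 0.0628 and an exact 2-sided permutation p of 0.143.

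The coefficients of variation of Drd5 were 22.9% in recovered and 17.0% in non-recovered animals, against 13.6% and 14.5% from counting. Without recovered animal 6 the log2 fold change was 0.28, and without recovered animal 23 it was 0.60. Centring each library on its median gene raised the median log2 fold change of all listed genes by 0.11, and Drd5 then had 0.52 and passed (limma adjusted p = 0.0330). With quantile normalization it had 0.57 and also passed (limma adjusted p = 0.0468). Listed genes that passed as higher numbered 8 on the deposited values, 129 with median centring and 70 with quantile normalization. These gains are thus not particular to Drd5. Both scalings used the listed genes only, of which 64.7% had lower means. An antisense gene, Gm26560 (chromosome 5, 38317333 to 38320897, minus strand), covers 1531 nt or 48.6% of the exonic bases of Drd5. The libraries are stranded, but whether reads were counted by strand is not given in the sources used here, so reads of the 2 genes may not be separated.

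Adora2a (ENSMUSG00000020178.6; chromosome 10, 75316877 to 75334784, plus strand) encodes the Gs-coupled adenosine receptor. It stood at 1.91, 2.19 and 1.95 CPM in recovered animals 6, 23 and 28, from 42, 56 and 35 reads. In non-recovered animals 17, 19, 20, 21 and 29 it stood at 4.59, 4.07, 2.37, 5.56 and 1.82 CPM, from 128, 102, 63, 114 and 50 reads. The recovered animals lay close together, 4 of 5 non-recovered animals lay above all of them, and animal 29 lay below all of them. The log2 fold change was -0.73 ± 0.32 (SE; 95% interval -1.47 to -0.00086), with a limma adjusted p of 0.0678 and an exact 2-sided permutation p of 0.143. The ratio of mean CPM, non-recovered over recovered, was 1.83.

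The coefficient of variation of Adora2a was 42.2% among non-recovered animals, against 10.5% from counting, and 32.1% without animal 29. Among recovered animals it was 7.53%, below the 15.2% from counting, so the 3 libraries lay closer together than counting error alone gives on average. Without non-recovered animal 29 the log2 fold change was -0.95 and the limma adjusted p 0.0406.

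Gpr6 (ENSMUSG00000046922.7; chromosome 10, 41069977 to 41072285, minus strand, 2 exons) lies on the same chromosome as Adora2a. It stood at 0.682, 0.742 and 0.723 CPM in recovered animals 6, 23 and 28, from 15, 19 and 13 reads. It stood at 1.40, 1.52, 1.13, 1.41 and 0.802 CPM in non-recovered animals 17, 19, 20, 21 and 29, from 39, 38, 30, 29 and 22 reads. The groups did not overlap, although animal 29 lay nearer to the recovered animals than to the other non-recovered ones. Groups that do not overlap were found for 43.2% of all listed genes, 25.4% as lower and 17.7% as higher. The log2 fold change was -0.71 ± 0.18 (SE; 95% interval -1.11 to -0.31), with a limma adjusted p of 0.0469. The exact 2-sided permutation p was 0.0357, the smallest that 3 against 5 animals can give here.

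The precision of Gpr6 rests on few reads. Its coefficient of variation was 4.35% among recovered animals, against 25.5% from counting. The 3 recovered libraries thus lay closer together than counting error alone gives on average, and the SE of 0.18 draws on that narrow spread. With voom the SE was 0.24. Among non-recovered animals the coefficient of variation was 23.1%, against 17.9% from counting. Without animal 29 the latter spread was 12.1%. Pooled reads gave 0.717 CPM in recovered (47 reads, exact Poisson 95% interval 0.527 to 0.953) and 1.24 CPM in non-recovered animals (158 reads, 1.05 to 1.45). Gpr6 no longer passed with voom, which weights each value by its read number (limma adjusted p = 0.0520). With voom 0 of all listed contralesional genes passed, so that loss is not particular to Gpr6. Gpr6 also did not pass when any 1 library other than that of animal 29 was left out (limma adjusted p 0.0548 to 0.0768). Of all listed genes, 33 passed with every library in. In these fits 0 passed without animal 17, 1 without 20, 3 without 19 and 6 without 28. Without animals 21, 23 and 6 the numbers were 10, 16 and 58. Without animal 29 its log2 fold change was -0.85 and its limma adjusted p 0.00960.

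Recovered animal 28 and non-recovered animal 29 are the only libraries of different groups whose codes share their first 2 fields. Between them, recovered against non-recovered, Drd2 was at 0.612 against 0.474 CPM, Adora2a at 1.95 against 1.82, Gpr6 at 0.723 against 0.802 and Drd5 at 2.78 against 1.53. With these fields as a block in limma, the group difference rests on that pair alone, 1 animal of each group. The log2 fold change was then 0.32 for Drd2 and 0.09 for Adora2a, the opposite sign to the fit without the block. It was -0.13 for Gpr6 and 0.83 for Drd5. Only non-recovered animals 19, 20 and 21 leave residual spread in this fit, so it does not measure the error of the pair. The fit thus cannot test a receptor, although it is counted among those that lost the Gpr6 call. The block was added after the data were seen, and what the fields stand for was not tested.

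**Figure D2:**
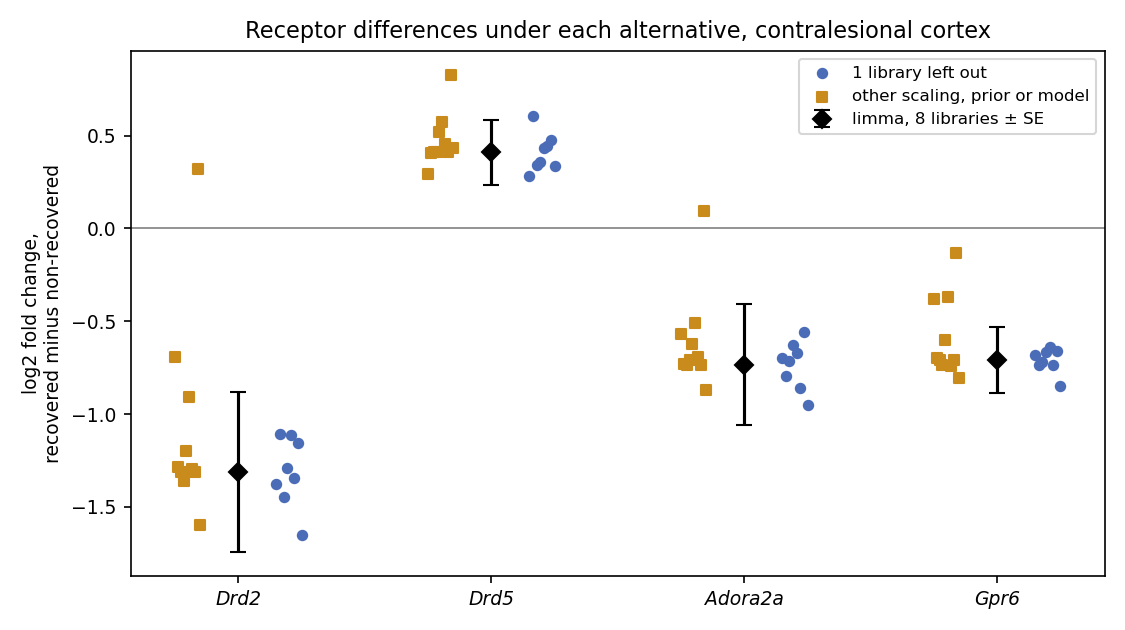
The log2 fold change (recovered minus non-recovered, vertical axis) of each receptor gene is plotted for the fit on all 8 contralesional libraries with its SE (black), with 1 library left out (blue), and under other scalings, prior counts or variance models (orange, the rightmost point of each gene being the log2 ratio of mean CPM). Orange includes the fit with the code fields as a block, in which Drd2 (0.32) and Adora2a (0.09) lie above 0; at every other point Drd2, Adora2a and Gpr6 lie below 0 and Drd5 above.

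Levels were compared between the receptors per kilobase of exonic length (CPM per kb). In non-recovered animals Adora2a was at 1.20 ± 0.51 CPM per kb, Gpr6 at 0.701 ± 0.162, Drd5 at 0.606 ± 0.103 and Drd2 at 0.597 ± 0.298 (SD, n = 5). The ranges of neighbours in that order overlapped. In recovered animals Drd5 came first at 0.819 ± 0.188 CPM per kb, followed by Adora2a at 0.658 ± 0.050, Gpr6 at 0.401 ± 0.017 and Drd2 at 0.197 ± 0.053 (SD, n = 3). Drd5 and Adora2a overlapped there, while every Adora2a level was above every Gpr6 level and every Gpr6 level above every Drd2 level.

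The balance between both dopamine receptors was read within each library, where the scaling total cancels. Drd2 gave 15.2%, 15.5% and 18.0% of the summed Drd2 and Drd5 reads in recovered animals 6, 23 and 28. It gave 47.1%, 54.1%, 36.8%, 47.8% and 23.6% in non-recovered animals 17, 19, 20, 21 and 29. The recovered share was below the non-recovered one in every library, although the 95% interval of animal 29 (Clopper-Pearson, 13.2% to 37.0%) reached those of the recovered animals. Adora2a against Drd5 gave 38.5% to 53.3% in recovered and 53.4% to 74.0% in non-recovered animals, so the nearest libraries of the groups, recovered animal 23 and non-recovered animal 20, lay side by side. Gpr6 against Drd5 gave 18.3% to 27.9% and 34.4% to 46.4%. These shares were formed after the values were seen, and they are descriptions with no test. Each sets a gene with a lower mean against Drd5, which had a higher one, so a gap follows in part from that choice. Single listed genes already did not overlap between the groups in 43.2% of cases.

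**Figure D3:**
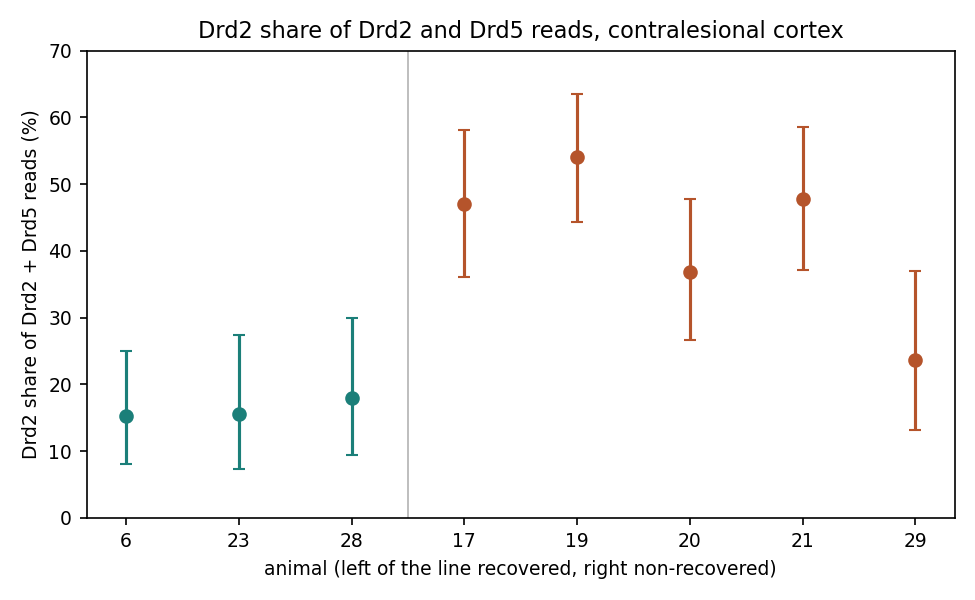
The share of Drd2 among the summed Drd2 and Drd5 reads (percent, vertical axis) is plotted for each contralesional library by animal, with exact 95% binomial intervals. The recovered animals (left) lie at 15.2% to 18.0% and the non-recovered ones (right) at 23.6% to 54.1%. The share was formed after the values were seen and was not tested.

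Among the 3 genes with lower means, the shares of both groups overlapped. Gpr6 gave 26.2 ± 0.9% of the summed Gpr6 and Adora2a reads in recovered animals (SD, n = 3) and 26.7 ± 5.0% in non-recovered ones (SD, n = 5). Drd2 gave 20.0 ± 5.4% against Adora2a in recovered animals and 28.5 ± 6.8% in non-recovered ones, with overlapping ranges. The summed CPM of all 4 receptors was 5.20 to 6.18 in recovered animals, 6.78 to 11.4 in non-recovered animals 17, 19, 20 and 21, and 4.63 in animal 29.

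Genes that varied most like each receptor were found by Pearson's r of the deviations from the group means over the 8 contralesional libraries, as a description. For Drd2 they were Lrrc10b, a striatal neuron gene (r = 0.94), Gpr6 (r = 0.91) and BC028528 (r = 0.90). For Adora2a they were P2ry1, a purinergic receptor gene (r = 0.96), Lrrc10b (r = 0.94) and Skap1 (r = 0.92). For Gpr6 they were P2ry1 (r = 0.95), Lrrc10b (r = 0.94) and Syndig1l, another striatal neuron gene (r = 0.92). For Drd5 they were other genes, Qtrtd1 (r = 0.91), C2cd4c (r = 0.90) and Lekr1 (r = 0.89). Drd5 had r = 0.78 with Pde10a and 0.68 with Drd2, against 0.33 with Gpr6 and 0.26 with Adora2a. The genes named for each receptor have the highest r of all listed genes, picked over few libraries. Animal 29 had the largest deviation from its group mean of the 8 libraries for Drd2 (-1.36), Adora2a (-0.87) and Gpr6 (-0.56). The same held for Lrrc10b (-1.07) and Syndig1l (-1.23), and r without animal 29 was not computed. All of these values come from the same libraries and share their totals. P2ry1 itself had a log2 fold change of -0.53 ± 0.12 and passed (limma adjusted p = 0.0469; in 1 of 8 fits with a library left out), and Skap1 had 0.54 ± 0.21 and did not pass (limma adjusted p = 0.0590).

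Of 176 other genes on lists of receptors, G proteins, cyclases, phosphodiesterases and cyclic AMP targets, 11 are among the contralesional genes. Of these, 9 had lower and 2 higher means in recovered mice, and 1 passed. It was the prostaglandin E2 receptor gene Ptger4, with a lower mean (-0.63 ± 0.16, limma adjusted p = 0.0469). Its call held in 2 of 8 fits with a library left out and in 3 of 9 other alternatives. The median log2 fold change of the 11 genes was -0.35, against -0.19 over all listed genes, of which 64.7% had lower means. The neuropeptide Y receptor gene Npy2r (0.36 ± 0.11, adjusted p = 0.0520) and the somatostatin receptor gene Sstr2 (0.35 ± 0.19, adjusted p = 0.0967) had higher means by limma.

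Downstream of the receptors, phosphodiesterases break cyclic AMP or cyclic GMP down. The 3 listed of 21 had lower means and none passed, where 64.7% of all listed genes had lower means and 7.91% passed. Pde10a, which is abundant in striatal projection neurons, had 42.8 to 59.2 CPM in recovered and 64.3 to 96.6 CPM in non-recovered animals (limma adjusted p = 0.0520). Its groups did not overlap, as for 43.2% of all listed genes. Pde7b (-0.35 ± 0.14) and the cyclic GMP enzyme gene Pde5a (-0.23 ± 0.10) had smaller differences. The protein kinase A inhibitor gene Pkib had -0.25 ± 0.09 (limma adjusted p = 0.0576). The activity-dependent genes Npas4 (-1.06 ± 0.44) and Btg2 (-0.53 ± 0.27) did not pass either, and Rasd2, a G protein regulator, had -0.18 ± 0.08. None of 10 adenylyl cyclases, 8 genes of dopamine synthesis, uptake and breakdown, or 8 genes of adenosine handling is among the listed genes, so their levels were not analysed here.

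**Figure D4:**
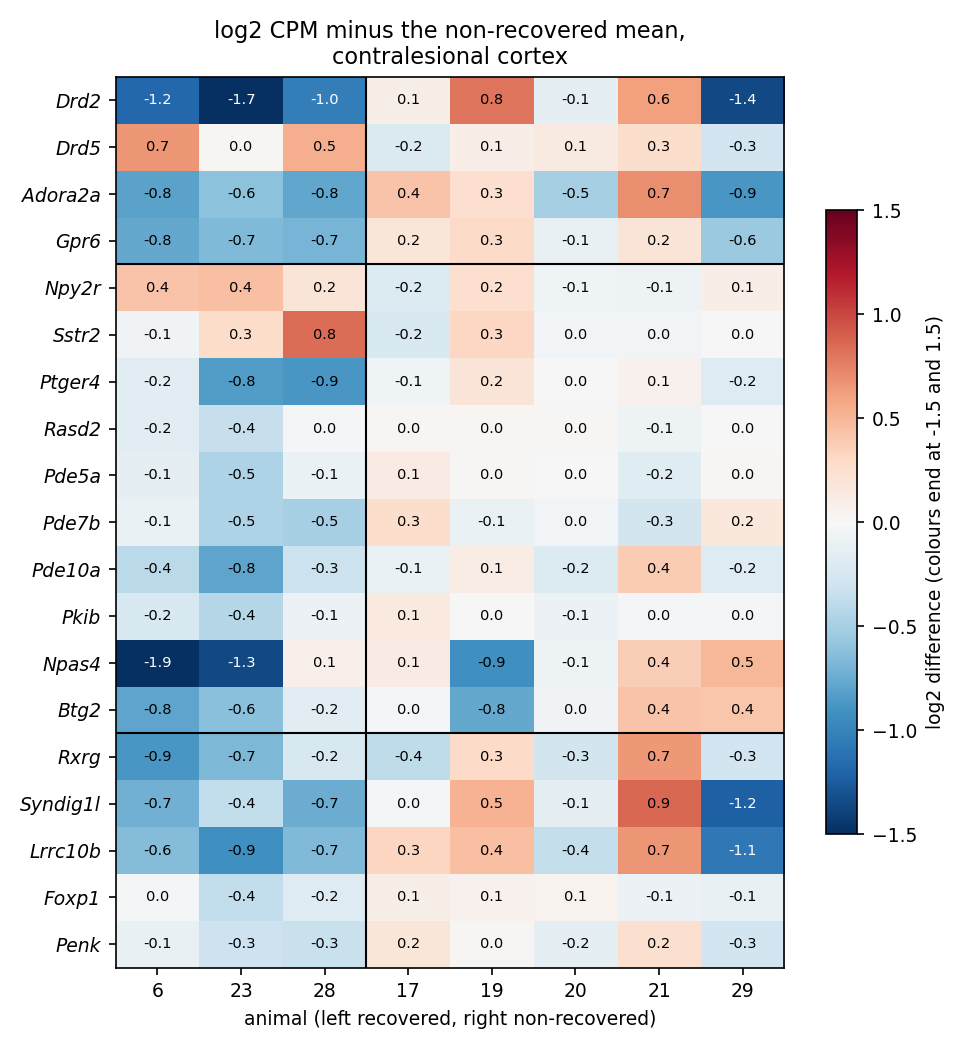
Each cell gives the log2 CPM of a gene (rows) in a contralesional library (columns, by animal) minus the non-recovered mean of that gene, with red higher and blue lower. The 4 receptors stand at the top, then 10 of the 11 other pathway genes, then 5 further striatal genes; animal 29 is low for Drd2 (-1.36), Adora2a (-0.87) and Gpr6 (-0.56), as the recovered animals are.

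Markers of striatal projection neurons were looked up beside the receptors. Of 20 shared striatal markers, 8 are among the contralesional genes, and all 8 had lower means in recovered mice, with 0 past the adjusted p. Over all listed genes, 64.7% had lower means and 7.91% passed, and the groups did not overlap for 43.2%. The summed level of the 8 markers was 352 to 414 CPM in recovered and 443 to 502 CPM in non-recovered animals, and none was at 0 in any library. Of 5 markers of indirect pathway neurons beside the receptors, only the enkephalin gene Penk is listed (27.5 to 32.3 CPM in recovered, 28.5 to 41.0 CPM in non-recovered animals). None of 8 direct pathway markers is listed. In animal 29 the shared markers summed to 443 CPM, above every recovered animal, while its Drd2 lay within and its Adora2a below the recovered range. Foxp1 (133 to 181 CPM) and Rasd2 (83.7 to 109 CPM) weigh most in that sum. Against the non-recovered mean on the log2 scale, Lrrc10b (-1.07) and Syndig1l (-1.23) were also low in animal 29. Rxrg (-0.29), Penk (-0.29), Pde10a (-0.19) and Foxp1 (-0.11) lay less far below that mean, and Pde7b (0.16) and Rasd2 (0.005) lay above it. Of 9 markers of meningeal fibroblasts 3 are listed, with overlapping sums of 66.0 to 90.7 CPM in recovered and 88.1 to 104 CPM in non-recovered animals. Of these, Mgp was lower in recovered mice and passed (-0.40 ± 0.09, limma adjusted p = 0.0469, in 2 of 8 fits with a library left out), while Islr and Fn1 did not pass. The interneuron marker Sst, 1 of 9 listed, had a higher mean in recovered animals (113.8 to 131.9 against 108.3 to 117.8 CPM) and did not pass. None of the fixed astrocyte, oligodendrocyte, microglial, endothelial or choroid plexus markers is listed. The part of these markers in the receptor differences was not tested.

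On the side of the lesion, the 4 receptors are not among the listed genes, so no receptor was compared between hemispheres. Of the pathway genes 10 of 176 are listed there, 4 with higher and 6 with lower means in recovered mice, and 0 passed by limma, against 1.14% of the 263 listed genes, of which 50.2% had lower means. At an unadjusted limma p under 0.05, 74.5% of the listed genes counted. Pde10a had 39.5 to 53.5 CPM in recovered and 49.6 to 67.0 CPM in non-recovered animals, with a log2 fold change of -0.32 ± 0.13 (limma adjusted p = 0.0662). Ptger4, which had a lower mean in recovered mice in the contralesional libraries, had 0.58 ± 0.25 here (limma adjusted p = 0.0668). The muscarinic receptor genes Chrm2 (0.26 ± 0.09) and Chrm4 (0.27 ± 0.14) and the glutamate receptor gene Grm4 (0.24 ± 0.09), all coupled to Gi-type proteins, had higher means. The regulators of G protein signalling Rgs8 (-0.24 ± 0.08) and Rgs14 (-0.23 ± 0.09) and the G protein subunit gene Gng7 (-0.14 ± 0.05) had lower ones, as had Pde11a (-0.44 ± 0.15). Whether these differences differ from those of the other hemisphere was not tested.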

How the data were processed

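RNA of the primary motor cortex was sequenced from poly(A) stranded TruSeq libraries, 1 per animal and hemisphere, per the labels' protocols. Tools listed, per the submitters' processing notes, are STAR 2.5.1b, Trimmomatic 0.38, edgeR and bcl2fastq, with the build mm10. The sources used here do not give the counter of reads, its annotation or how the listed genes were selected. The authors deposited log2 CPM values of selected genes, in a table per hemisphere. Here 100% of these values came out as whole reads (within 0.01) once a prior count of 2, scaled to each library's total, was removed. The totals so found were not whole numbers in 7 of 8 contralesional libraries (SE at most 0.00045 reads), as plain read totals would be, so they contain a normalization factor. CPM in the text is reads over these totals, without the prior.

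Groups came from the sample titles. Recovered and non-recovered animals were compared on the deposited values with limma 3.58.1 (R 4.3.3). No gene was filtered out, and p-values were adjusted by Benjamini-Hochberg over all listed genes of a table. The largest unadjusted limma p of the contralesional genes was 0.156 (Syndig1l), and 73.4% were under 0.05. These genes thus differ between the groups more than a list drawn without regard to them would. Adjusted p-values, exact permutation p-values and group overlaps are therefore descriptions among such genes. The adjusted p-values are smaller than they would be over all genes. Exact permutation tests over the 56 splits were 2-sided. The limma step was tested on simulated data. Alternatives covered prior count, variance model, voom, scaling, exonic length, a filter and each library left out. A block of the first 2 fields of the description codes was added after the data were seen. Loci and exonic lengths came from GENCODE M21. The receptors and gene lists were chosen with earlier results of these data known. Named genes were the 4 receptors, listed genes of the pathway and striatal marker lists, and the 3 genes most like each receptor. Of these, 1 pathway gene is counted but not reported here by its own values.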

Additional observations from a re-analysis of the deposited data

Results flagged for a closer look

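In non-recovered animals, Rasd2, a pathway gene beside the receptors, was at 6.66 log2 CPM in animal 21, apart from the other 4 animals of its group, which lay between 6.75 and 6.77. It was the 1 gene of 15 whose lowest or highest library stood this far from its group of 5; chance gives such a gap in about 1 of 20 groups. None of the 4 receptors had one in this group, and groups of 3 were not examined.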

How the results depend on the processing

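Gpr6 had a lower and Drd5 a higher mean in recovered mice under 17 of 17 tested alternatives, and Drd2 and Adora2a a lower one under 16. The exception was the code field block, added after the data were seen and resting on animals 28 and 29: Drd2 0.32, Adora2a 0.091, Gpr6 -0.13, and ipsilesional Pde10a 0.055. The number of receptors past the adjusted p moved from 1 to 0 with log2(CPM + 1), with trended and robust variances and with voom, to 2 with median centring, and ranged from 0 to 3 with 1 library left out. Leaving out 1 library gave log2 fold changes of -1.65 to -1.11 for Drd2, 0.28 to 0.60 for Drd5, -0.95 to -0.56 for Adora2a and -0.85 to -0.64 for Gpr6. Gpr6 lost its call with log2(CPM + 1) (-0.38, adjusted p = 0.0506), trended and robust variances (-0.71, 0.0509), voom (-0.74, 0.0520) and quantile normalization (-0.37, 0.105). Drd5 gained one with median centring (0.52) and quantile normalization (0.57).

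Receptor and pathway genes past the adjusted p numbered 2 (0 higher, 2 lower), and 0 with log2(CPM + 1), trended variances and voom, 4 with median centring (2 higher, 2 lower), 2 with quantile normalization (2 higher, 0 lower), 2 with the length trend removed (1 higher, 1 lower) and 0 to 5 with a library left out. Contralesional genes numbered 33, and 3 with log2(CPM + 1), 2 with trended variances, 0 with voom (356 unadjusted), 152 with median centring (129 higher, 23 lower), 77 with quantile normalization (70 higher, 7 lower), 96 with the length trend removed (71 higher, 25 lower) and 0 to 74 with a library left out. Ipsilesional genes numbered 3, and 1, 196, 0, 78, 39 and 1 under the same 6 changes, and 0 to 18 with a library left out. Ipsilesional Pde10a passed with trended and robust variances (-0.32, adjusted p = 0.0480). The cause of these changes was not tested. No paired analysis was possible because recovered and non-recovered groups are different animals and share no animal number; the code fields shared by 1 animal of each group were used as the block above. At 9 to 67 reads for Drd2, Drd5 and Gpr6, counting error limits every fold change.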
